A study of Caenorhabditis elegans with 14 samples.

Results

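Muscle contracts when thick filaments built from myosin slide along thin filaments built from actin. A myosin molecule has a pair of heavy chains, which carry the motor, and light chains bound to the neck of each motor. In nematodes the thick filament also holds a core of paramyosin, while tropomyosin winds along the thin filament and controls access of myosin to actin. The first-stage larva of C. elegans hatches with working body-wall muscle, used for crawling, and pharyngeal muscle, used for feeding, and each tissue has its own heavy chains.

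Described here are 9 genes of this machinery out of 20315 in the deposited tables, chosen by name. They are the body-wall heavy chains unc-54 and myo-3, the pharyngeal heavy chains myo-1 and myo-2, the paramyosin gene unc-15, the light chains mlc-1, mlc-2 and mlc-3, and the tropomyosin gene lev-11, which belongs to the thin filament. Public names in the coordinate file found 8 of them, and myo-1 was found as R06C7.10, listed there under the older name let-75, through the locus tag in RefSeq. RNA polymerase II was mapped in whole wild-type N2 larvae by chromatin immunoprecipitation (ChIP) and sequencing, in which read density measures how much polymerase was crosslinked along a gene. Recovery larvae had spent 12 hr in L1 arrest, the developmental stop of larvae that hatch without food, and were fixed 1 hr after HB101 bacteria were added. They were compared with unfed larvae fixed at 12 hr of arrest, and an S2 column at 6 hr of arrest gave an earlier point. No other ChIP column shares the run name of that 6 hr column, so time and run cannot be told apart there. Each of the later states has 1 library with antibody S2, against polymerase phosphorylated at serine 2 of its C-terminal repeat, 2 biological replicates with 4H8, which binds that repeat more generally, and 1 library with 8WG16, which is known to prefer the unphosphorylated repeat. All of these are whole-animal samples, so fewer cells of a type and less polymerase per cell cannot be told apart.

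The ChIP libraries held between 1322300 and 5863200 reads, as worked out from the smallest steps of the deposited densities, and the single input column held 11904800. Gene density is in RPKM (reads per kilobase of the whole gene model, scaled to the reads of the library), and TSS density is the same unit in a 200 bp window at the most upstream start site. The median gene had 7.96 RPKM in recovery and 6.56 RPKM in 12 hr arrest, averaged over 4 libraries each, and 10.96 RPKM in input. Log2 ratios are recovery over 12 hr arrest on the log2(RPKM + 5) scale, averaged over the antibodies and given ± standard error, from a limma fit over all genes of at least 10 RPKM on average, with Benjamini-Hochberg adjusted p-values and a threshold of 0.05. The scale understates changes of low genes.

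Among the 9 genes the change after feeding in gene density was uneven. The body-wall heavy chain myo-3 fell to the level of input, the light chain mlc-2 fell less, the pharyngeal heavy chain myo-1 rose, and the other 6 did not pass the test. Thus 1 of 9 rose, where 22.9% of the 7214 genes tested rose, and 2 of 9 fell, where 15.1% of all genes fell. These shares are near the background, and the median log2 ratio was 0.01 for the 9 genes and 0.08 for all genes. At the start window 2 of 8 tested genes fell, unc-54 and unc-15, where 21.7% of 6808 genes fell, and none rose, where 6.99% of all genes rose. Of these calls the fall of myo-3 alone held under every one of 15 alternative treatments of the data. The others were lost when some single libraries were left out, as stated with each.

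**Figure D1:**
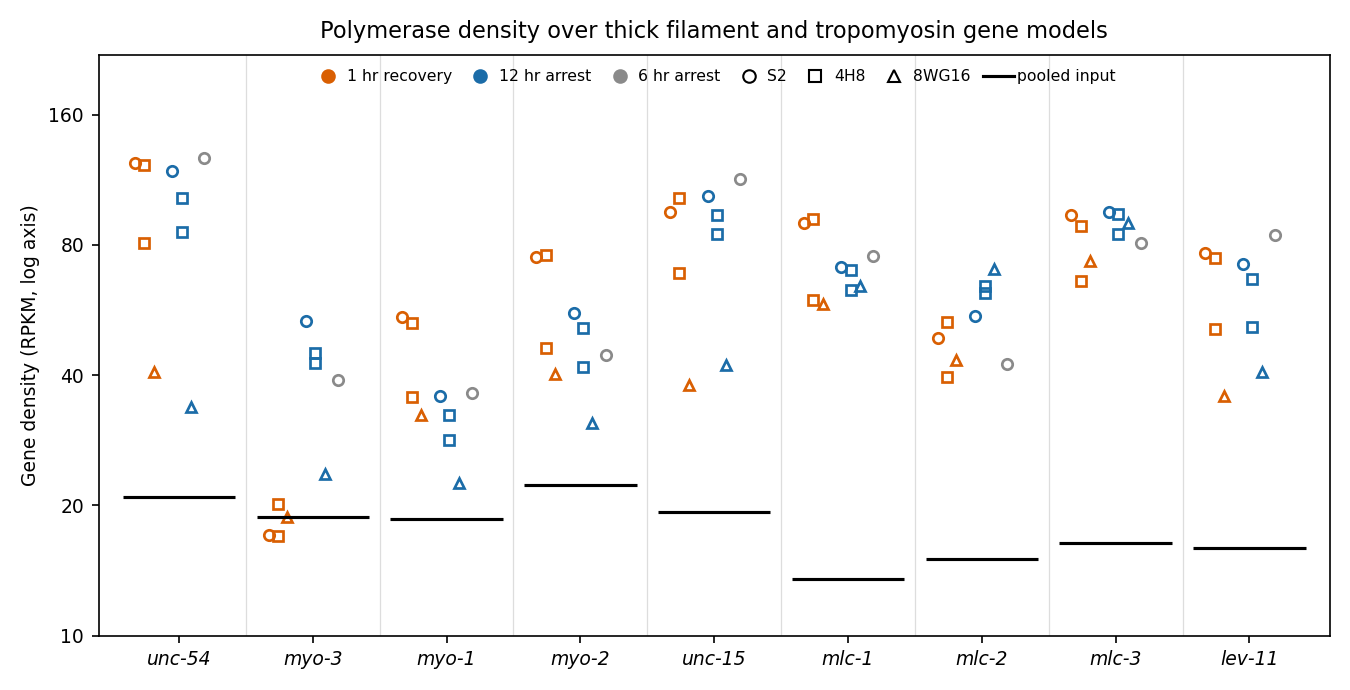
Gene density (RPKM, log axis) of each gene in each ChIP library: 1 hr recovery in orange, 12 hr arrest in blue and 6 hr arrest in grey, with a marker for each antibody and a black line for the pooled input. Recovery values of myo-3 lie between 17.0 and 20.1 RPKM, around its input line, and below all its arrest values.

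All 9 genes carried polymerase above input in 12 hr arrest in all 4 libraries. At that time their mean gene densities lay between 29.8 RPKM for myo-1 and 91.2 RPKM for mlc-3, which placed them above 93.4% to 99.1% of all genes. In recovery the means lay between 18.2 RPKM for myo-3 and 91.8 RPKM for unc-54. At input level myo-3 was still above 84.8% of all genes in recovery, where the median gene's deposited fold enrichment was 0.62. The order in recovery was unc-54, mlc-3, unc-15, mlc-1, lev-11, myo-2, mlc-2, myo-1 and myo-3, and the ranges over libraries of neighbours in it overlapped except for myo-1 and myo-3. In 12 hr arrest the order was mlc-3, unc-54, unc-15, mlc-1, mlc-2, lev-11, myo-2, myo-3 and myo-1, and every pair of neighbours overlapped. So myo-3 stood above myo-1 in 4 of 4 arrest libraries and below it in 4 of 4 recovery libraries.

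The heavy chain unc-54, which supplies most of the myosin of body-wall thick filaments, lies on the minus strand of chromosome I from 14852479 to 14863527 in the WS190 annotation of the files. In recovery its gene density was 123 RPKM with S2, 122 and 80.7 RPKM with 4H8 and 40.6 RPKM with 8WG16. In 12 hr arrest it was 118 RPKM with S2, 103 and 85.6 RPKM with 4H8 and 33.8 RPKM with 8WG16, and the input column had 20.9 RPKM. The states overlapped, the 8WG16 library was the lowest of each, and the log2 ratio was 0.11 ± 0.16 (limma adjusted p = 0.601). This ratio turned negative under quantile normalization and under scaling on chemoreceptor genes, so it has no settled direction.

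At the start of unc-54 the picture was different. TSS density was 60.2 RPKM with S2, 73.3 and 55.4 RPKM with 4H8 and 60.5 RPKM with 8WG16 in recovery, against 79.6 RPKM with S2, 116 and 91.5 RPKM with 4H8 and 157 RPKM with 8WG16 in 12 hr arrest. Every recovery library was below every 12 hr arrest library, but above the S2 library at 6 hr of arrest, which had 52.1 RPKM. Of the same-antibody pairs of recovery and 12 hr arrest, 4 of 4 fell. TSS density fell by 0.75 ± 0.25 on the log2 scale (limma adjusted p = 0.0182). The call was lost without the second 4H8 or the 8WG16 recovery library (adjusted p = 0.0682 and 0.118) and without the first 4H8 or the 8WG16 arrest library (adjusted p = 0.0644 and 0.115). Quantile normalization reduced the log2 ratio to -0.26 (adjusted p = 0.397). With no filter on low values and with the authors' fold enrichment the ratios were -0.75 and -0.79, and the adjusted p-values 0.120 and 0.0548. The windows held between 16 and 85 reads, with the lowest count in the 8WG16 recovery library.

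Myosin A, the product of myo-3, fills the middle of the body-wall thick filament and is known to be needed for building it. The gene lies on the minus strand of chromosome V from 12226793 to 12234320. Its gene density was 17.1 RPKM with S2, 17.0 and 20.1 RPKM with 4H8 and 18.8 RPKM with 8WG16 in recovery, against 53.5 RPKM with S2, 44.98 and 42.8 RPKM with 4H8 and 23.7 RPKM with 8WG16 in 12 hr arrest. The recovery values stood around the input value of 18.8 RPKM and did not overlap those of arrest. Relative to input, the authors' deposited fold enrichment was 0.904 to 1.07 in recovery libraries and 1.26 to 2.85 in arrest libraries.

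The gene density of myo-3 fell by 0.95 ± 0.17 on the log2 scale (limma adjusted p = 0.00368, lower in 4 of 4 pairs). Over the 15 alternatives, which include leaving out each library, the log2 ratio ran between -1.33 and -0.65, and the adjusted p-value stayed at or below 0.0240. The fall was smallest with 8WG16, at -0.27 in that pair, against -1.41 with S2 and -1.19 and -0.93 in the 4H8 pairs. With the 4H8 libraries alone, part of the same data, myo-3 fell by 1.06 ± 0.16 (limma adjusted p = 0.0109), the only one of the 9 genes called, where 14.0% of 7240 genes were called in either direction. Adding the replicate pairs to that 4H8 fit raised the calls over all genes to 1551 higher and 957 lower, against 568 and 444 without, and myo-3 was again the only one called. The start window of myo-3 was below the level required for testing: it held 3, 3, 10 and 1 reads in the recovery libraries (S2, both 4H8, 8WG16), against 10, 6, 13 and 7 reads in the 12 hr arrest libraries.

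The body-wall heavy chains were also compared within the same libraries. The ratio of myo-3 to unc-54 gene density was 0.138 with S2, 0.139 and 0.250 with 4H8 and 0.463 with 8WG16 in recovery, against 0.452 with S2, 0.437 and 0.499 with 4H8 and 0.700 with 8WG16 in 12 hr arrest. It was lower in recovery in each of the 4 pairs, and scaling a whole library cannot change such a ratio. The overlap between these states came from the 8WG16 recovery library. In the S2 library at 6 hr of arrest the ratio was 0.306, within the recovery range and below every 12 hr arrest value.

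Pharyngeal thick filaments use the heavy chains of myo-1 and myo-2. The myo-1 gene lies on the minus strand of chromosome I from 7258913 to 7267077. In recovery its gene density was 54.6 RPKM with S2, 52.7 and 35.5 RPKM with 4H8 and 32.3 RPKM with 8WG16, against 35.8 RPKM with S2, 32.4 and 28.4 RPKM with 4H8 and 22.5 RPKM with 8WG16 in 12 hr arrest. It was higher in 4 of 4 pairs, although the states overlapped between antibodies. The log2 ratio was 0.47 ± 0.13 (limma adjusted p = 0.0242), and all arrest and recovery libraries were above the input of 18.6 RPKM.

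That call for myo-1 was sensitive to single libraries. It was kept without the second 4H8 recovery library and without the first 4H8 arrest library, and lost without any of the other 6, with adjusted p-values of 0.0521 to 0.0892: S2, the first 4H8 or 8WG16 in recovery, and S2, the second 4H8 or 8WG16 in arrest. With no filter on low values the adjusted p-value was 0.0546. Scaling each library on chemoreceptor genes, which are taken to carry little polymerase, lowered the ratio to 0.09 (adjusted p = 0.855). Relative to the median of all genes, the myo-1 ratio was 0.39 with the densities as deposited, 0.40 after quantile normalization and 0.34 after chemoreceptor scaling.

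The myo-2 gene lies on the plus strand of chromosome X from 12467984 to 12475264. Its gene density was 75.2 RPKM with S2, 75.7 and 46.3 RPKM with 4H8 and 40.2 RPKM with 8WG16 in recovery, against 55.6 RPKM with S2, 51.5 and 41.9 RPKM with 4H8 and 30.99 RPKM with 8WG16 in 12 hr arrest. The states overlapped, and each pair was higher in recovery, but the log2 ratio of 0.34 ± 0.16 did not pass the test (limma adjusted p = 0.124), and it was -0.06 under chemoreceptor scaling. Leaving out the second 4H8 recovery library brought a call, at 0.48 (adjusted p = 0.0259). The myo-1 to myo-2 ratio of gene density was 0.697 to 0.804 in recovery and 0.628 to 0.726 in 12 hr arrest. Neither pharyngeal gene was called at the start window, where the log2 ratios were -0.16 ± 0.25 for myo-1 and -0.25 ± 0.28 for myo-2 (limma adjusted p = 0.684 and 0.544).

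**Figure D2:**
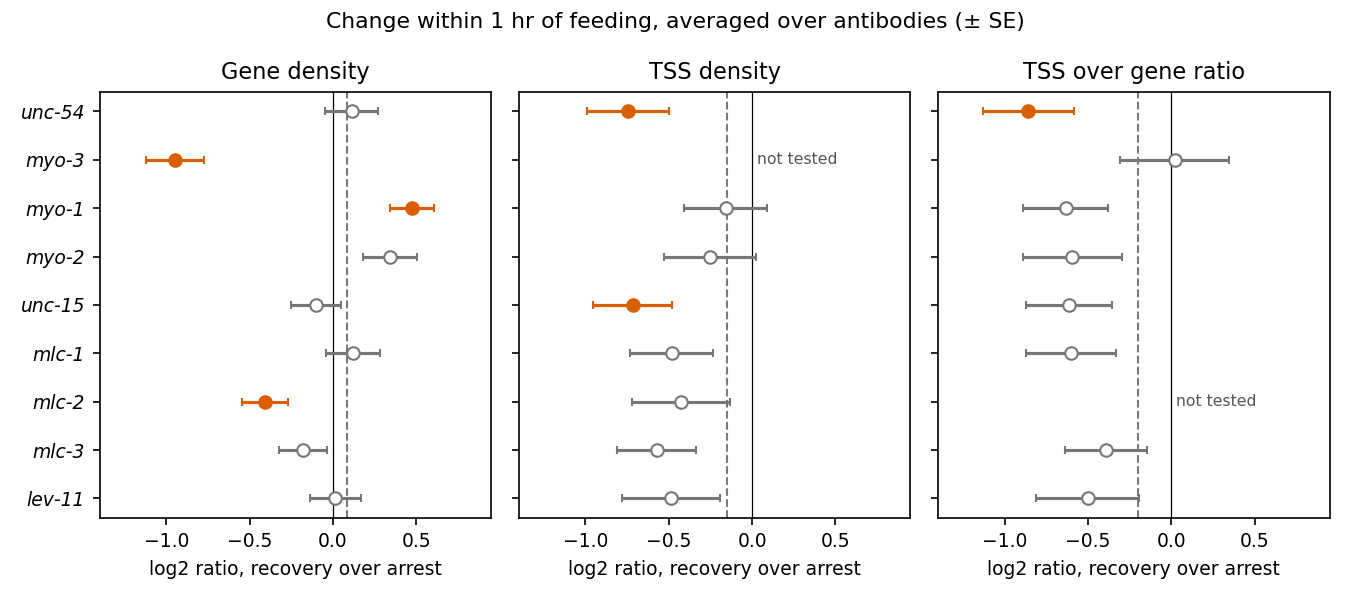
Log2 ratio ± standard error of recovery over 12 hr arrest for gene density, TSS density and their ratio, averaged over antibodies. Orange points passed the adjusted threshold of 0.05, grey ones did not, and the dashed line is the median of all genes tested. Gene density separates myo-3 (-0.95) from myo-1 (0.47). All 8 tested points for TSS density lie below 0, where 59.7% of the 6808 genes tested do, with a median of -0.15.

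Paramyosin, the product of unc-15, forms the core of the thick filament in both muscle types. The gene lies on the minus strand of chromosome I from 7376619 to 7383194. Gene density was 95.2 RPKM with S2, 103 and 69.0 RPKM with 4H8 and 37.96 RPKM with 8WG16 in recovery, against 103.9 RPKM with S2, 93.8 and 84.9 RPKM with 4H8 and 42.3 RPKM with 8WG16 in 12 hr arrest. The states overlapped and the log2 ratio was -0.10 ± 0.15 (limma adjusted p = 0.608), although quantile normalization called it lower, at -0.40 (adjusted p = 0.0258). At the start window unc-15 had 50.5 RPKM with S2, 93.3 and 111.7 RPKM with 4H8 and 136 RPKM with 8WG16 in recovery, against 109 RPKM with S2, 166 and 138 RPKM with 4H8 and 231 RPKM with 8WG16 in 12 hr arrest. TSS density fell by 0.72 ± 0.24 on the log2 scale (limma adjusted p = 0.0179) and was lower in 4 of 4 pairs. The states overlapped across antibodies. In the S2 library at 6 hr of arrest the window had 59.8 RPKM. Input had 52.5 RPKM, above the S2 recovery value, where the start window of the median gene had 10.08 RPKM of input. The call was lost without the S2 library of either state (adjusted p = 0.126 without that of recovery and 0.125 without that of arrest) and without the first 4H8 arrest library (0.0606). Quantile normalization reduced the log2 ratio to -0.18 (adjusted p = 0.591). With no filter and with the authors' fold enrichment the ratios were -0.72 and -0.75, and the adjusted p-values 0.0713 and 0.0545.

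The regulatory light chains mlc-1 and mlc-2 encode nearly identical proteins and lie close together on chromosome X, mlc-1 on the plus strand from 17459075 to 17460694 and mlc-2 on the minus strand from 17455709 to 17456509. Their starts are 2566 bp apart and point away from each other. How reads that match more than 1 place were counted is not given in the sources used here, so a division of reads between these 2 genes is uncertain. Both had ordinary input, 13.5 RPKM for mlc-1 and 15.0 RPKM for mlc-2.

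For mlc-1, gene density was 89.9 RPKM with S2, 91.7 and 59.6 RPKM with 4H8 and 58.4 RPKM with 8WG16 in recovery, against 71.3 RPKM with S2, 70.1 and 62.8 RPKM with 4H8 and 64.4 RPKM with 8WG16 in 12 hr arrest. The states overlapped, 2 of 4 pairs were higher, and the log2 ratio was 0.12 ± 0.16 (limma adjusted p = 0.581). For mlc-2, gene density was 48.9 RPKM with S2, 53.1 and 39.6 RPKM with 4H8 and 43.5 RPKM with 8WG16 in recovery, against 54.7 RPKM with S2, 64.3 and 61.9 RPKM with 4H8 and 70.3 RPKM with 8WG16 in 12 hr arrest. The states of mlc-2 did not overlap and each pair was lower in recovery. It fell by 0.41 ± 0.14 on the log2 scale, just past the threshold (limma adjusted p = 0.0485).

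The call for mlc-2 held without the first 4H8 recovery library and was lost without any of the other 7, at adjusted p-values up to 0.146. It was also lost under chemoreceptor scaling (adjusted p = 0.0791), with no filter (0.0784) and with the authors' fold enrichment (0.0536). Relative to the median of all genes its ratio was -0.49 as deposited, -0.52 after quantile normalization and -0.56 after chemoreceptor scaling. The mlc-1 to mlc-2 ratio of gene density was 1.84 with S2, 1.73 and 1.50 with 4H8 and 1.34 with 8WG16 in recovery, against 1.303 with S2, 1.09 and 1.01 with 4H8 and 0.915 with 8WG16 in 12 hr arrest. The ratios of the states did not overlap, and in the S2 library at 6 hr of arrest the ratio was 1.78, within the recovery range.

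The light chain mlc-3, of the essential type, lies on the plus strand of chromosome III from 5564981 to 5567343. Its gene density ran from 66.2 to 94.0 RPKM in recovery, against 85.0 to 95.5 RPKM in 12 hr arrest, with a log2 ratio of -0.18 ± 0.14 (limma adjusted p = 0.340). Quantile normalization called it lower, at -0.49 (adjusted p = 0.00287). It had the highest TSS density of the 9 genes, 201 RPKM with S2, 167 and 193 RPKM with 4H8 and 152 RPKM with 8WG16 in recovery, against 202 RPKM with S2, 241 and 296 RPKM with 4H8 and 348 RPKM with 8WG16 in 12 hr arrest. With S2 at 6 hr of arrest the window had 121 RPKM, and input had 43.7 RPKM. The S2 values of recovery and 12 hr arrest were almost equal, and the others were lower in recovery. The log2 ratio of -0.57 ± 0.24 missed the threshold (limma adjusted p = 0.0624). Without the S2 library of recovery or of arrest it passed (adjusted p = 0.0441 and 0.0407).

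The tropomyosin gene lev-11 lies on the minus strand of chromosome I from 14621150 to 14631241 and is known to make several isoforms from more than 1 promoter, while the deposited TSS window covers the most upstream start. Its gene density was 35.9 to 76.8 RPKM in recovery, against 40.6 to 72.4 RPKM in 12 hr arrest, with a log2 ratio of 0.01 ± 0.15 (limma adjusted p = 0.945). The start window was low, 4.97 to 20.4 RPKM in recovery and 13.6 to 23.2 RPKM in 12 hr arrest, around its input of 17.9 RPKM. It was not called there (log2 ratio -0.49 ± 0.29, limma adjusted p = 0.229), apart from chemoreceptor scaling (adjusted p = 0.0345).

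Some of the gene models overlap others, and reads there cannot be assigned to either gene. The WS190 model of unc-54 shares 4399 bp with aex-5, which had 31.3 RPKM in recovery and 32.5 RPKM in 12 hr arrest, and 1790 bp with str-245, which had 5.78 RPKM in recovery and 3.99 RPKM in 12 hr arrest. Both neighbours were far less dense than unc-54, and str-245 was below its input of 9.63 RPKM. The whole-model density of unc-54 thus includes a stretch of low density. The part of this stretch in its rank, its TSS to gene ratio and the myo-3 to unc-54 ratio was not tested. The mlc-1 model shares 617 bp with ZK54.1 and the mlc-2 model 63 bp with C36E6.2, whose log2 ratio of 0.39 (limma adjusted p = 0.0304) was opposite to that of mlc-2.

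**Figure D3:**
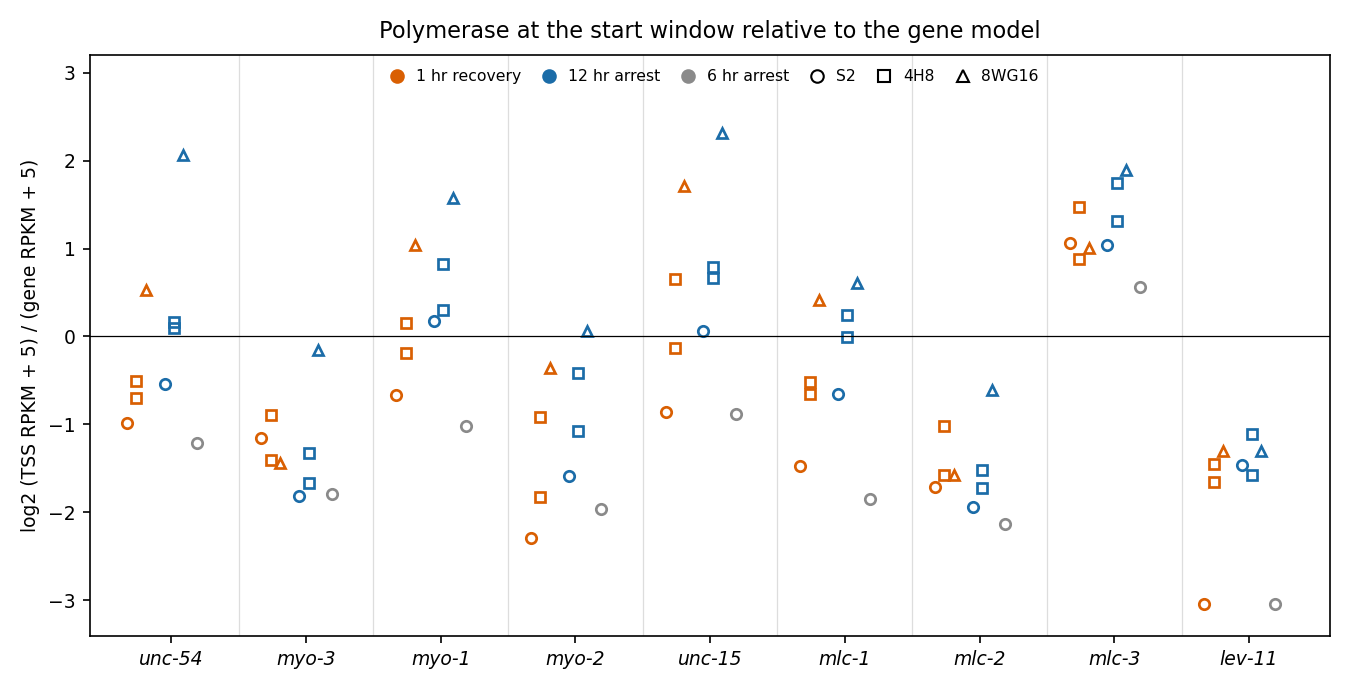
Log2 ratio of TSS density + 5 over gene density + 5 in each ChIP library, with recovery in orange, 12 hr arrest in blue, 6 hr arrest in grey and a marker for each antibody. The 8WG16 triangles are the highest points of each state for unc-54, myo-1, myo-2, unc-15 and mlc-1.

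The position of polymerase along the genes was described by dividing TSS density by gene density, after adding 5 to each, on the log2 scale, and this was tested in models of at least 1000 bp and so not in mlc-2. For unc-54 it was -0.98 with S2, -0.70 and -0.50 with 4H8 and 0.52 with 8WG16 in recovery, against -0.54 with S2, 0.17 and 0.09 with 4H8 and 2.06 with 8WG16 in 12 hr arrest. In the S2 library at 6 hr of arrest it was -1.21, below the S2 recovery value. Within each antibody the recovery value was lower than that of 12 hr arrest. The difference was -0.86 ± 0.27 (limma adjusted p = 0.0344), and unc-54 was the only 1 of 8 genes called lower, where 14.4% of 7561 genes were. None was called higher, where 1.55% of all genes were. The ratio is not corrected for input, whose own value was 1.24 for unc-15, above all its S2 and 4H8 libraries, and 1.19 for mlc-3.

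The unc-54 call on this ratio was lost without each of the 8 libraries in turn, S2, both 4H8 and 8WG16 of recovery and of arrest, at adjusted p-values of 0.0503 to 0.163. It was also lost with a pseudocount of 1 (adjusted p = 0.112), with no filter on low values (0.105) and with the authors' deposited 5' bias (0.189). With a pseudocount of 20, 5 genes were called lower: unc-54, myo-1, myo-2, unc-15 and mlc-1. At the main setting, the ratios of the other 4 of these lay between -0.63 and -0.59 with adjusted p-values between 0.105 and 0.204, and the median over all genes was -0.20. For myo-3, whose start window holds few reads, the ratio changed by 0.02 ± 0.33 (limma adjusted p = 0.981).

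The level of several genes differed between antibodies. In gene density the 2 libraries of 8WG16 lay below the other 7 ChIP libraries at unc-54, myo-2, unc-15 and lev-11, 4 of 9 genes, where this held for 18.0% of all genes tested. For unc-54 the 8WG16 values were 40.6 RPKM in recovery and 33.8 RPKM in 12 hr arrest, while the S2 and 4H8 libraries ranged from 80.7 to 127 RPKM. The TSS to gene ratio had both 8WG16 libraries above the other 7 at unc-54, myo-1, myo-2, unc-15 and mlc-1, 5 of 8 genes, where this held for 10.9% of all genes tested. The light chain mlc-3 had both 8WG16 gene densities within the range of the other antibodies, and for mlc-2 the 8WG16 value in 12 hr arrest was the highest of the 9. The 8WG16 libraries were also the shallowest, with 1322300 reads in recovery and 1688600 in 12 hr arrest, and the part of depth in these differences was not tested. They also share a run name that no library of another antibody has, so antibody and run cannot be told apart.

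The difference between antibodies in the response to feeding was tested for 4H8 against S2. None of the 9 genes was called, and neither was almost any other gene (2 of 7240, 0.0276%, and 107 at an unadjusted p under 0.05 in limma). The largest such difference among the 9 was 0.35 ± 0.28 for myo-3, the 4H8 response of -1.06 being smaller in size than the S2 response of -1.41. With 1 S2 library per state these intervals are wide, and a like response is not shown by the missing call.

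Between 12 hr and 6 hr of arrest, seen with S2 alone, none of the 9 genes was called and neither was any of the 7240 tested (0%, limma; 500 genes at an unadjusted p under 0.05, none of the 9 among them). The values for myo-3 were 53.5 RPKM at 12 hr and 38.9 RPKM at 6 hr, a log2 ratio of 0.41 ± 0.23. For mlc-2 they were 54.7 RPKM at 12 hr and 42.4 RPKM at 6 hr, 0.33 ± 0.32. For unc-54 they were 118 RPKM at 12 hr and 127 RPKM at 6 hr, -0.10 ± 0.40, and for myo-1 35.8 RPKM at 12 hr and 36.4 RPKM at 6 hr, -0.02 ± 0.32. Each point is 1 column, taken to vary like the 4H8 replicates. The ± values are standard errors, and 95% intervals, which are wider, include changes in either direction. At 6 hr, myo-3 was thus above the 17.1 RPKM seen with S2 after feeding. The 6 hr column has a run name that no other ChIP column has, so time of arrest and run cannot be told apart.

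The pattern of each heavy chain over the 9 ChIP columns was set beside 3021 other named genes, by Pearson's r of log2(RPKM + 5). Columns differ in antibody and depth as well as state, so these likenesses are descriptions. The genes were picked on the same columns that give the feeding response, so their rise or fall, and its p-value, is no separate result. Nearest to unc-54 were the alpha spectrin gene spc-1 (r = 0.99), the Argonaute gene alg-1 (0.99) and the beta spectrin gene unc-70 (0.99), none of which was called after feeding. Without the 8WG16 columns, over 7, these were 0.94, 0.95 and 0.89. Nearest to myo-3 were dlg-1, a scaffold of epithelial junctions (0.98), the nuclear envelope gene unc-84 (0.98) and tps-1, a trehalose phosphate synthase gene (0.98), with 0.99 each without 8WG16. All of these fell after feeding, tps-1 to 10.06 RPKM in recovery against 23.9 RPKM in 12 hr arrest (log2 ratio -0.92, limma adjusted p = 0.00170).

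Nearest to myo-1 were the translation initiation genes eif-3.F (r = 0.996) and ifg-1 (0.98) and the intermediate filament gene ifb-1 (0.98), and ifg-1 had 55.3 RPKM in recovery against 30.0 RPKM in 12 hr arrest. Nearest to myo-2 were the chromatin remodelling gene let-418 (0.98), the splicing gene prp-8 (0.97) and mag-1 (0.96), a mago nashi homologue. Among the 9 genes themselves, unc-54 followed unc-15 (0.98) and lev-11 (0.95), and myo-1 followed myo-2 (0.95). For myo-3, r with the other members ran from -0.41 with myo-1 to 0.43 with unc-15. Without the 8WG16 columns it was -0.79 with myo-1, -0.63 with myo-2 and -0.49 with mlc-1. It was then 0.48 with mlc-2, 0.30 with mlc-3 and 0.28 with unc-15, and -0.06 with unc-54 and -0.03 with lev-11.

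**Figure D4:**
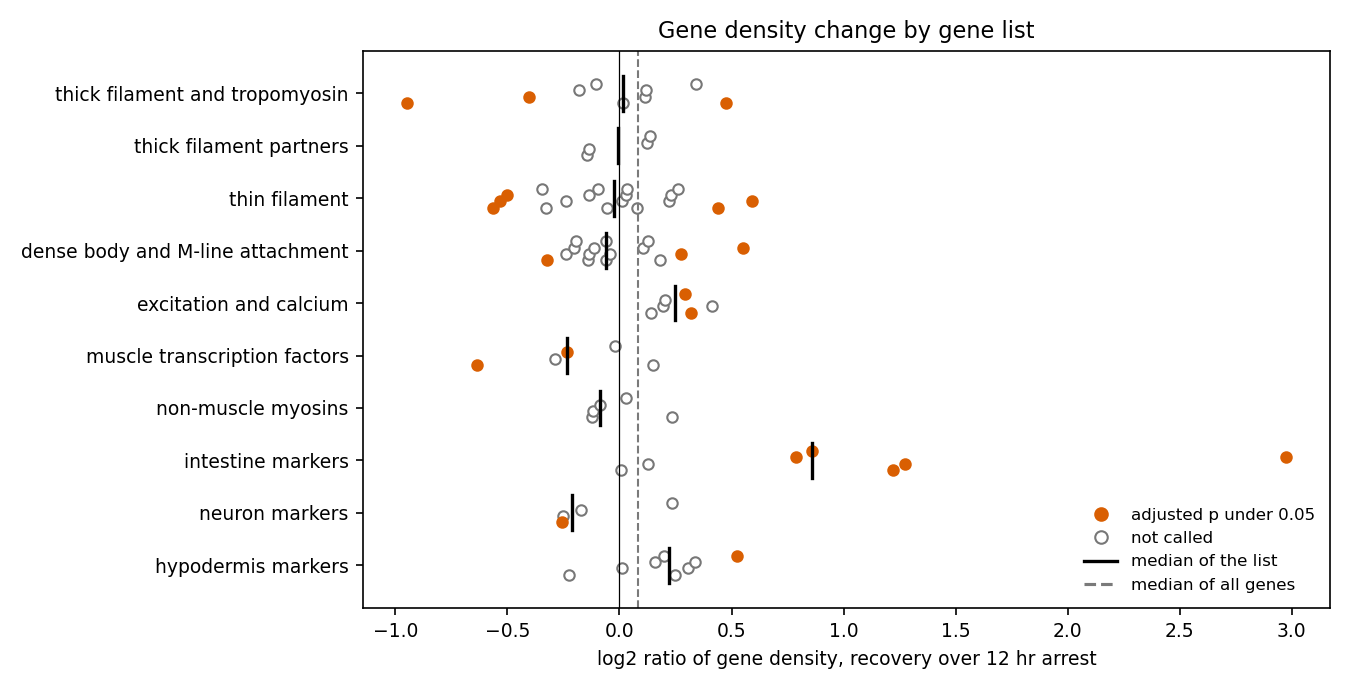
Log2 ratio of gene density, recovery over 12 hr arrest, for the 9 genes (top) and for lists of related muscle genes and of other tissues. Orange points passed the adjusted threshold of 0.05, black bars are list medians and the dashed line is the median of all genes. Intestine markers reach 2.97, while the medians of the thick filament partner, thin filament and attachment lists are -0.01, -0.02 and -0.06.

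Lists of other sarcomere genes held calls in both directions. Of the thick filament partners, 4 were dense enough to test and none was called. They include unc-22 (twitchin, a giant kinase of the thick filament), at 17.7 RPKM in recovery against 20.4 RPKM in 12 hr arrest, and unc-89 (obscurin of the M-line), at 14.5 RPKM against 13.0 RPKM in arrest. In the thin filament list 2 of 18 genes rose and 3 fell, where 22.9% of all genes rose and 15.1% fell, so both shares are near or below the background. The troponin I gene tni-3 rose to 16.6 ± 0.963 RPKM in recovery, against 9.43 ± 2.18 RPKM in 12 hr arrest (SD, n = 4; limma adjusted p = 0.00475), and its input was 14.1 RPKM, above the arrest mean. The troponin C gene pat-10 fell to 27.9 ± 3.69 RPKM, against 43.5 ± 4.25 RPKM in 12 hr arrest (limma adjusted p = 0.0103). The actin bundling gene unc-87 fell by 0.54 ± 0.11 on the log2 scale (limma adjusted p = 0.00649). The actin genes in that list are near copies of each other, so their separate values are uncertain.

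Of 15 dense body and M-line genes, 2 rose and 1 fell, both below the shares over all genes. The perlecan gene unc-52, which anchors muscle to the basement membrane, had 31.9 ± 5.92 RPKM in recovery and 20.0 ± 2.95 RPKM in 12 hr arrest (SD, n = 4; log2 ratio 0.55 ± 0.09, limma adjusted p = 0.00272), with an input of 21.4 RPKM. The LIM protein gene unc-95 rose by 0.27 ± 0.09 (adjusted p = 0.0423), and the vinculin gene deb-1 fell by 0.32 ± 0.09 (adjusted p = 0.0246). Of 6 genes of excitation and calcium handling 2 rose, the GABA receptor gene unc-49 (0.32 ± 0.09, adjusted p = 0.0295) and the ryanodine receptor gene unc-68 (0.29 ± 0.08, adjusted p = 0.0230). Of 5 muscle transcription factors 2 fell, mef-2 (-0.64 ± 0.12, adjusted p = 0.00382) and the pharyngeal organ gene pha-4 (-0.23 ± 0.08, adjusted p = 0.0492). Over all genes, 22.9% rose and 15.1% fell. None of 5 non-muscle myosin genes was called in gene density, nmy-2 being at 19.2 RPKM in recovery and 21.5 RPKM in 12 hr arrest and the light chain mlc-4 at 15.0 RPKM in recovery and 16.2 RPKM in 12 hr arrest. At the start window the thin filament list had 0 of 12 genes higher and 4 lower, the attachment list 0 of 12 and 2, the excitation list 0 of 9 and 1, and the non-muscle myosins 1 of 5 and 0, where 6.99% of all genes rose and 21.7% fell. No gene was called there among the 4 thick filament partners and the 5 transcription factors.

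Lists for other tissues were set beside these. Of 7 intestine genes 5 rose, with a list median of 0.86, where 22.9% of all genes rose with a median of 0.08. The aspartic protease gene asp-1 had 496 RPKM in recovery against 60.2 RPKM in 12 hr arrest. The gut actin act-5 had 93.4 RPKM against 35.5 RPKM in arrest, and the cathepsin gene cpr-1 had 65.3 RPKM against 25.2 RPKM in arrest. Their inputs were 54.9, 26.7 and 30.4 RPKM, that of cpr-1 above its arrest mean. The intestine genes not called were elt-2 (0.13) and ifb-2 (0.01). Of 4 neuron genes 1 fell, unc-119 (-0.26 ± 0.09, limma adjusted p = 0.0475), and of 8 hypodermis genes 1 rose, sqt-3 (0.52 ± 0.16, limma adjusted p = 0.0305), where 15.1% of all genes fell and 22.9% rose. For sqt-3 the means of 15.7 RPKM in recovery and 9.57 RPKM in 12 hr arrest were both below its input of 21.5 RPKM. The mean density over the 8 libraries of recovery and 12 hr arrest was below input for 4 of 18 thin filament genes and 4 of 15 attachment genes. It was so for 2 of 7 intestine genes, 4 of 8 hypodermis genes and 2 of 4 neuron genes. The same held for 1 of 4 thick filament partners, 2 of 6 excitation genes, 2 of 5 non-muscle myosins and 0 of 5 transcription factors. For unc-68, unc-49, unc-95 and unc-119 the inputs of 13.8, 16.9, 15.7 and 12.6 RPKM lay between the means of the states. Read density is relative to the library total, and the part of the gain of the 5 called intestine genes in the muscle values was not tested.

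Scaling changes which direction prevails. Over all genes, 1653 were called higher and 1090 lower as deposited, 1242 and 1503 after quantile normalization, and 393 and 1598 after chemoreceptor scaling, where the median of all genes was -0.25 instead of 0.08. Under chemoreceptor scaling the thin filament list had 0 higher and 5 lower, the attachment list 0 and 3, the excitation list 0 and 0, the transcription factors 0 and 3, the intestine list 3 and 0, the neuron list 0 and 2 and the hypodermis list 0 and 0. Relative to the median of all genes, myo-3 stood at -1.03 as deposited, -0.98 after quantile normalization and -1.08 after chemoreceptor scaling. For unc-54 the same values were 0.03, -0.23 and -0.05.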

How the data were processed

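The authors deposited RPKM densities for gene models and for 200 bp start windows, a fold enrichment (ratio) over input, and a 5' bias ratio, with WS190 coordinates, per the file headers. The aligner is not given in the sources used here. There were 10 ChIP samples but 9 ChIP columns, since the 6 hr S2 column carries the title of replicate 1 alone, and 1 input column for 4 input samples, used as values without a test. No column was left out. Depth was recovered from the steps of TSS density: 99.4% to 99.8% of gene densities were then whole reads within 0.1 read, among genes whose rounding error was smaller than that. A TSS window with 3 reads corresponds to 2.56 to 11.3 RPKM in the ChIP libraries, which covers counting error only. TSS values of mlc-3 and lev-11 were not whole multiples of that step.

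RPKM values were analysed as log2(RPKM + 5) in R 4.3.3 with limma 3.58.1 (lmFit, eBayes with trend, two-sided), over genes with a mean of at least 10 RPKM. The 8 libraries of 12 hr arrest and recovery were fitted with antibody as a term, and all 9 ChIP columns in a second fit with a mean for each antibody and state, which gave the 4H8, S2 time and 4H8 minus S2 comparisons. Plots were drawn with matplotlib 3.10.9, and tables with pandas 2.3.3 and numpy 2.4.6, in Python 3.11.15. On simulated data for the averaged gene density fit, 195 of 200 changed genes were recovered over 7214 genes, with 11 false calls. The median estimate of the changed genes was 1.16 in size, larger than that of any of the 9 genes in this fit. Simulated libraries were independent and had no antibody differences. The share recovered therefore does not carry over to the smaller changes among the 9 genes. In 12 hr arrest and recovery, libraries of the same antibody and number share a run name in the labels. The 6 hr S2 column has a run name of its own. The deviations of the numbered 4H8 pairs correlated at r = 0.347 over 7214 genes. No source says whether the immunoprecipitations of a state shared chromatin, and p-values then measure only the spread between these libraries, which may be technical.

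Members and lists were chosen with earlier results of these data known. From each list up to 3 called genes of largest change were named, or the 2 densest where none was called, and 3 genes most like each heavy chain. Of 102 list genes 99 were matched, 2 of them through RefSeq.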

Additional observations from a re-analysis of the deposited data

Results flagged for a closer look

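The response of the TSS to gene ratio went in opposite directions with 8WG16 and with 4H8 at myo-3 and mlc-2. For myo-3 the log2 difference, recovery minus 12 hr arrest, was -1.28 with 8WG16, against 0.27 and 0.44 in the 4H8 pairs, and the 8WG16 window held 1 read in recovery and 7 reads in 12 hr arrest. For mlc-2 it was -0.96 with 8WG16, against 0.14 and 0.50 in the 4H8 pairs, and the 8WG16 window held 3 reads in recovery and 15 reads in 12 hr arrest. The difference between antibodies was not tested. No library stood out by Dixon's criterion in 54 groups of 4 values checked. Chance alone flags about 1 in 20 such groups when the values are replicates. Here each group mixed antibodies that differ in level, so the missing flags do not show that no library is an outlier.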

How the results depend on the processing

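In gene density, the fall of myo-3 passed under all 15 alternatives, and the other calls did not. With 1 gene higher and 2 lower at the main setting, the counts were 0 higher and 1 lower with no filter on low values and under chemoreceptor scaling, 4 lower under quantile normalization and 1 lower with the authors' fold enrichment. Leaving out 1 library gave 0 to 2 higher and 1 to 2 lower. The TSS density count of 2 lower became 0 with no filter, quantile normalization or the authors' fold enrichment, and 0 to 2 when 1 library was left out. For the TSS to gene ratio, 1 lower became 0 with a pseudocount of 1, no filter or the authors' deposited 5' bias, 5 with a pseudocount of 20, and 0 when any library was left out. The 4H8 count of 1 lower became 0 under chemoreceptor scaling, where myo-3 was at -1.54 (limma adjusted p = 0.120).

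Signs of uncalled genes turned. In averaged gene density, quantile normalization gave -0.24 for unc-54, -0.13 for mlc-1 and -0.19 for lev-11, and chemoreceptor scaling gave -0.30 for unc-54, -0.056 for myo-2, -0.29 for mlc-1 and -0.39 for lev-11. Leaving out 1 library gave -0.22 to 0.00048 for unc-15, -0.0017 to 0.23 for mlc-1 and -0.10 to 0.11 for lev-11. Quantile normalization gave 0.24 for the TSS density of myo-1. The TSS to gene ratio of myo-3 was -0.27 with a pseudocount of 1, -0.41 with the deposited 5' bias and -0.19 to 0.45 without 1 library. With 4H8, chemoreceptor scaling gave -0.44 for unc-54, -0.024 for myo-1, -0.18 for myo-2, -0.36 for mlc-1 and -0.44 for lev-11. Without 1 library, 4H8 values ranged from -0.21 to 0.36 for unc-54, -0.0058 to 0.65 for myo-2, -0.35 to 0.20 for unc-15, -0.14 to 0.44 for mlc-1 and -0.18 to 0.32 for lev-11. Chemoreceptor scaling also gave 0.41 for unc-54, 0.45 for myo-1, 0.38 for unc-15, 0.42 for mlc-1 and 0.29 for lev-11 between 12 and 6 hr, and -0.33 for unc-54 and -0.31 for unc-15 in 4H8 minus S2. The causes were not tested.

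Counts over all genes also moved. Without the S2 library of recovery or arrest, averaged gene density had 1062 or 1069 higher and 706 or 701 lower. TSS density had 164 higher and 505 lower with no filter, 170 higher under chemoreceptor scaling and 288 higher with the authors' enrichment. The TSS to gene ratio, with 117 higher and 1092 lower, had 51 and 693 with a pseudocount of 1, 42 and 346 with no filter, 15 and 401 with the deposited 5' bias, 197 higher with a pseudocount of 20 and 73 higher without either S2 library. With 4H8 the counts were 31 and 216 under chemoreceptor scaling and 1551 and 957 with the replicate block. Without a 4H8 library they were 311 higher and 292 lower (first recovery), 288 lower (second recovery) and 961 higher (second arrest). Between 12 and 6 hr, 1 was higher and 1 lower with a pseudocount of 1, and 13 and 11 under chemoreceptor scaling. In 4H8 minus S2, 0 was lower with a pseudocount of 20, and 7 were higher and 10 lower under chemoreceptor scaling. The replicate block changed no call among the 9 genes. Shallow 8WG16 libraries, with 1 to 16 reads in the myo-3, mlc-2 and unc-54 start windows of recovery, limit what can be said there.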
